A study of Mus musculus with 3 samples.

Results

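Transcripts that an assembler built from the reads of mouse oocytes, but that carried no gene name, were described here where they were abundant. A locus was included when its name field was empty in every table that listed it and its mean over the 3 libraries, with an absent row taken as 0, was at least 10 FPKM (read fragments scaled to transcript length and library depth). The loci were thus chosen by the FPKM values themselves, so their abundance is a description. The rule gave 1313 loci out of 12426 rows without a name and 43346 rows in all. None of the 1313 had an Ensembl identifier, and all carried a number given by the assembler, written MSTRG followed by the number. They made up 24.5% of the 5363 rows that reached the same level, and 4048 of the rest had a gene name in every table that listed them.

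Total RNA was taken from oocytes of 8-week-old females of the outbred ICR stock. The labels give the exposure of the 3 libraries as none for control, low and high, the agent being PCB118, a dioxin-like polychlorinated biphenyl. The title of the series places the exposure in pregnancy and asks about oocyte maturation in the offspring, and the labels give no dose amounts. How many mice or oocytes went into a library is not given in the sources used here. With 1 library in each group there is no spread between replicates to set a difference against, so p-values are absent and every statement is about these libraries, not about the exposures.

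A growing mouse oocyte stores large amounts of maternal RNA and stops transcription before it matures. Its transcriptome is known for transcripts that start in long terminal repeats of retrotransposons, for long noncoding RNAs and for pseudogene transcripts that form small RNAs, many of which gene annotations do not hold. An assembler such as StringTie joins overlapping aligned reads into transcripts and groups them into loci, and a locus that overlaps no annotated gene receives a number and no name. Such a locus can be a separate transcript, or a stretch of an annotated gene that was assembled apart from it, and the tables used here do not tell these apart. Its length is not given either, so the reads behind its FPKM are not known.

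The oocyte identity of the libraries was checked on named rows. All 11 oocyte markers had a row, with a summed level of 7674, 6378 and 7500 FPKM. Here and below, values stand in the order control, low dose, high dose. Most of that sum was Dppa3, over its 2 rows at 4707, 4174 and 5342 FPKM, and single markers differed more. Gdf9, an oocyte growth factor gene, was at 661, 38.5 and 193 FPKM, Figla at 95.8, 73.4 and 41.8 FPKM and Bmp15, also over 2 rows, at 4.27, 18.7 and 15.8 FPKM. Of 8 granulosa and cumulus markers 6 had a row, with a summed level of 7.56, 13.8 and 12.5 FPKM. Most of that sum was Fshr, over its 2 rows at 5.61, 9.95 and 9.05 FPKM. Cyp19a1 was at 1.42, 1.32 and 2.22 FPKM and Inha at 0.378, 2.55 and 1.03 FPKM. Inhba, Has2 and Ptgs2 were at or under 0.18 FPKM in every library, and Amh and Foxl2 had no row. The 4 blood markers had no row, and the 3 stromal markers summed to 0.198, 0.0111 and 0.0567 FPKM. The part of these marker differences in the results below was not tested. The tables give no counts. The worth of 1 read was estimated from the most common low product of FPKM and exon length (247 of 3469, 169 of 2731 and 203 of 3113 rows). It was 0.0286, 0.0357 and 0.0315 FPKM for a transcript of 1 kb, which would put the depths at about 34900000, 28000000 and 31700000 reads. At these depths a locus of 1 kb at 10 FPKM would rest on about 349, 280 and 317 reads, and a shorter locus on proportionally fewer.

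The unnamed abundant loci held 11, 16.1 and 13.8% of all FPKM, or 41566, 68560 and 54526 FPKM. In whole oocyte samples, a change in the cells collected and a change in RNA per cell cannot be told apart. All rows without a name together held 15.4, 21.9 and 19.3%. In FPKM, rows without a name exceeded control by 34894 for the low dose and by 17656 for the high dose, and the 1313 loci carried 77.4 and 73.4% of that excess. In control they already held 71.4% of the FPKM of rows without a name, and the mean that chose them includes the exposed libraries. Rows with a name summed to 319123, 331574 and 317917 FPKM.

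Most of the loci sat not far above the threshold. The median of their mean levels was 20.8 FPKM, against 24.5 FPKM for named rows that reached 10 FPKM. A mean under 20 FPKM was found for 624 loci (47.5%), while 248 reached 50, 99 reached 100 and 32 reached 200 FPKM. The median level by library was 16.6, 26.2 and 21.6 FPKM, and the 95th percentile was 89.7, 177 and 132 FPKM. In the control library 56 loci were at 100 FPKM or more, against 138 for the low dose and 96 for the high dose. Named rows were not counted at 100 FPKM by library. For those that reached a mean of 10 FPKM the median level by library was 22.9, 26.2 and 24.2 FPKM. The 10 most abundant loci held 16.2, 13.3 and 14.3% of the FPKM of all 1313.

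A single threshold on the mean lets a locus in through 1 library. All 3 libraries were at 10 FPKM or more for 786 loci, exactly 2 for 377 and only 1 for 150. Of these 150, the library at 10 FPKM or more was the low dose for 92, the high dose for 45 and control for 13. The same count was not made for named rows, so it cannot be read as particular to unnamed loci. Just inside the threshold were MSTRG.7403 at 6.39, 17.2 and 6.42 FPKM, MSTRG.32034 at 10, 8.94 and 11.1 FPKM and MSTRG.43209 at 10.4, 7.77 and 11.8 FPKM. Just outside it were MSTRG.38069 at 2.49, 21 and 6.5 FPKM, MSTRG.40292 at 7.92, 13.2 and 8.89 FPKM and MSTRG.2020 at 8.11, 11.8 and 10 FPKM.

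Numbers given by the assembler followed the genome, which allowed each locus to be placed roughly. Of 26329 named loci with such a number, 25224 had a single position in GENCODE M21, on GRCm38. The submitters' processing notes name that build as mm10. Consecutive named loci lay on the same chromosome in 99.9% of cases and in ascending order in 87%. When a named locus was placed only by its named neighbours in number, its true position overlapped that interval for 88.5% of 25166 loci. Rows that share a symbol share a position, so neighbouring ones count as in order and as overlapping, which can raise these shares. In this way 1311 of the 1313 loci received an interval, from the start of 1 flanking named gene to the end of the other, with a median width of 367 kb and an 80% range from 71.8 to 1820 kb. These intervals are estimates of place and not the ends of a transcript, and whether a locus is exonic, intronic or intergenic is not known.

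The most abundant locus was MSTRG.9248, at 2232, 2675 and 2287 FPKM. It stood above every other unnamed locus in every library and below the highest named row, whose mean was 4738 FPKM. Its interval lay on chromosome 12, 14146830 to 15816922 (GRCm38), between Fam84a and Trib2, a pseudokinase gene, and both adjacent numbers also lacked a name, with MSTRG.9249 at 24.8, 27.4 and 29.9 FPKM. The 3 libraries were close for MSTRG.9248, whose log2 ratios to control, taken after adding 1 FPKM to each value, were 0.26 for the low dose and 0.04 for the high dose.

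MSTRG.4716 followed at 633, 1749 and 1028 FPKM, low in control and high in the low dose library (log2 ratios to control 1.46 and 0.70). Its interval on chromosome 10, from 69398773 to 72674964, was wide and lay between Ank3, an ankyrin gene, and Zwint, a kinetochore gene. Ank3 starts before Ipmk in the reference but followed it in number, so the left part of this interval is uncertain. The adjacent numbers of MSTRG.4716, without names, stayed at or under 2.00 FPKM. MSTRG.37822 was at 427, 1126 and 634 FPKM, with the same order of libraries (1.40 and 0.57). It had a narrow interval on chromosome 7, 30077337 to 30107622, between the zinc finger genes Zfp566 and Zfp260, and Zfp260, at the next number, was at 1.83, 1.29 and 1.82 FPKM. On the FPKM scale the unnamed locus lay far above its named neighbour in all 3 libraries.

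MSTRG.3530 was the exception among the 10 most abundant loci, with its highest value in control. It was at 826, 336 and 637 FPKM, more than 2-fold lower in the low dose library (log2 ratio -1.29) and within the 2-fold rule in the high dose library (-0.38). Its interval lay on chromosome 10, 6740629 to 7212237, between Cnksr3 and Gm10945. Both adjacent numbers lacked a name and were between 2.11 and 3.68 FPKM.

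Dok5, an adaptor protein gene on chromosome 2, flanked the intervals of both MSTRG.25197 and MSTRG.25185. By number each was closer to the named gene on its other side, 1700028P15Rik for MSTRG.25197 and Gm16796 for MSTRG.25185. MSTRG.25197 was at 534, 784 and 598 FPKM, with an interval from 170731807 to 171962824. MSTRG.25185, whose interval ran from 170499357 to 170879769, was at 473, 456 and 494 FPKM. For the second the libraries were nearly level, while the first was highest in the low dose library (log2 ratio 0.55).

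Several of the other most abundant loci sat beside weakly expressed named genes. MSTRG.10468 was at 493, 621 and 777 FPKM, next in number to Galc, a lysosomal galactosidase gene at 0.705, 1.48 and 2.36 FPKM. MSTRG.43958 was at 260.2, 414 and 277 FPKM between Calml4 and Skor1, both at or under 0.64 FPKM in every library. MSTRG.32560 was at 189, 410.5 and 351 FPKM between Gm22728 and Ppef2, a phosphatase gene at 0.13, 0.15 and 0.34 FPKM. In all 3 cases the FPKM of the unnamed locus was far above that of the gene beside it.

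Others had an adjacent gene at a moderate level. MSTRG.33532 was at 128, 319 and 517 FPKM, lowest in control and highest in the high dose library. Its log2 ratios to control were 1.31 and 2.00. It lay between Zcchc8, a subunit of the nuclear exosome targeting complex at 18.8, 20.5 and 20.4 FPKM, and Clip1, a microtubule plus-end gene at 2.63, 4.11 and 3.50 FPKM, on chromosome 5, 123577795 to 123721100. Both flanking genes stayed within the 2-fold rule while the locus between them differed 4-fold between control and the high dose library. MSTRG.42405 was at 401, 434.5 and 576 FPKM next to Hsbp1, which encodes a heat shock factor binding protein, at 64.6, 50.1 and 60.3 FPKM.

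The remaining loci of the first 15 were MSTRG.18104 at 458, 451 and 487 FPKM, MSTRG.34738 at 271, 495.5 and 260.5 FPKM and MSTRG.26620 at 269, 279 and 354.5 FPKM. MSTRG.19602 was at 250.4, 489.5 and 298 FPKM. The highest of the 3 libraries was the low dose for MSTRG.34738 and MSTRG.19602, and the high dose for MSTRG.18104 and MSTRG.26620.

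**Figure D1:**
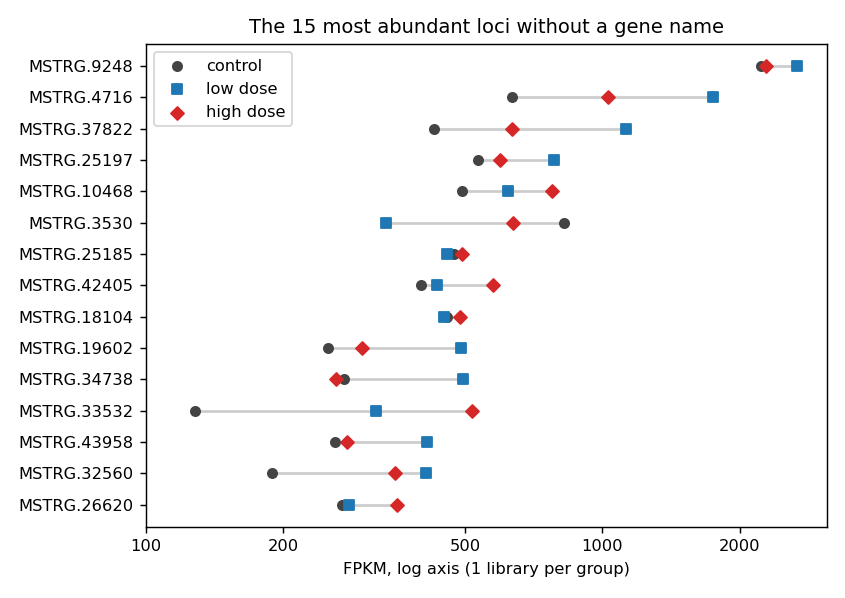
FPKM (log axis) of the 15 unnamed loci with the highest mean, 1 point per library and a grey line from the lowest to the highest value. MSTRG.9248 stands apart at 2232 FPKM or more, MSTRG.3530 is highest in control, and MSTRG.33532 has the widest span, from 128 to 517 FPKM.

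The first 15 loci also included some of the steadiest. Among loci with a mean of at least 100 FPKM, the 5 with the smallest SD of log2 values over the libraries had SDs from 0.03 to 0.07. MSTRG.29571 was at 146, 141 and 148 FPKM, MSTRG.17474 at 104, 106 and 99.9 FPKM and MSTRG.4271 at 126, 126 and 138 FPKM, with MSTRG.25185 and MSTRG.18104 as above. MSTRG.17474 was next in number to Gbe1, the glycogen branching enzyme, at 1.05, 1.49 and 0.92 FPKM. The interval of MSTRG.4271 lay between Lin28b, a regulator of let-7 processing, and Hace1. For each of these 5 loci the libraries lay within 1.5-fold of each other.

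As a group the unnamed loci differed more between libraries than named rows of the same level. The highest library exceeded the lowest by less than 1.5-fold, after adding 1 FPKM, for 393 unnamed loci (29.9%), against 2015 named rows (49.8%). A 4-fold span or more was found for 326 unnamed loci (24.8%) and 514 named rows (12.7%). The median span was 2.02-fold for unnamed loci and 1.5-fold for named rows.

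The control library was the lowest of the 3 for 709 unnamed loci (54%) and the highest for 272 (20.7%). In named rows it was the lowest for 39.6% and the highest for 38%. The low dose library was the highest for 611 unnamed loci (46.5%) and the high dose library for 430 (32.7%), against 38 and 24% of named rows.

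The first comparison set the low dose against control. A log2 ratio that reached 1 or -1 put a locus among those higher or lower, which measures size and tests nothing. Of 1313 unnamed loci 447 were higher (34%) and 73 were lower (5.56%). Among all 5363 rows with a mean of at least 10 FPKM, 20.5% were higher and 6.02% were lower by the same rule, and among the 4048 named rows 16.2 and 6.15%. The median log2 ratio was 0.43 for unnamed loci, 0.10 for all rows and 0.03 for named rows. A trimmed mean scaling was set on rows of every level above 0 in both libraries, not on these 5363 rows alone. Scaling the libraries in this way moved the median of the 5363 rows from 0.10 to -0.21. It brought the unnamed loci to 0.11 and named rows to -0.29, with 363 unnamed loci higher and 120 lower (75.2% of those past the rule higher, against 86% without scaling). Under the same scaling 494 named rows were higher and 484 lower (50.5%), and 857 and 605 of all rows (58.6%).

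For 2 of the loci with the largest ratios in the low dose library, control was not at 0. MSTRG.7913 was at 1.20, 159 and 89.6 FPKM, next in number to Znhit3, at 9.87, 10.5 and 10.6 FPKM. The locus was higher in both exposed libraries (log2 ratios 6.18 and 5.36) while Znhit3 was level. MSTRG.15481, at 0.102, 61.8 and 0.182 FPKM, was high at the low dose alone.

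The others of this group were at 0 in control, where an exact 0 can be a failed estimate, so no ratio is given. MSTRG.22839 was listed at 0, 280.5 and 243 FPKM, with an interval on chromosome 2 from 30889471 to 30967933, between Ptges, a prostaglandin E synthase gene, and Tor1a, a torsin ATPase gene. MSTRG.29356 was listed at 0, 64.6 and 25.2 FPKM and MSTRG.29109 at 0, 60.8 and 7.14 FPKM. MSTRG.11809 was listed at 0, 56.7 and 16.2 FPKM, next in number to Slc34a1, a sodium-phosphate cotransporter gene at 0.149, 0.155 and 0.0496 FPKM.

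Among the most reduced loci in the low dose library, MSTRG.36842 was at 105.5, 0.245 and 37.3 FPKM (log2 ratio -6.42) and MSTRG.14892 at 121, 1.04 and 188 FPKM (-5.91). The latter was highest in the high dose library, so the 2 exposed libraries lay on opposite sides of control. MSTRG.23657 was listed at 48.3, 0 and 38.9 FPKM and MSTRG.37649 at 39.3, 0 and 43.2 FPKM. MSTRG.21343 was listed at 33.2, 0 and 13.4 FPKM. MSTRG.3090 was listed for control only, at 73.9 FPKM, and its absent rows in both exposed libraries were taken as 0.

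The high dose library was then compared with the same control library. Here 329 unnamed loci were higher (25.1%) and 76 were lower (5.79%), while 14.8% of all rows with a mean of at least 10 FPKM were higher and 5.78% were lower, and 11.4 and 5.78% of named rows. The median log2 ratio was 0.30 for unnamed loci, 0.05 for all rows and -0.00140 for named rows. After trimmed mean scaling these medians were 0.12, -0.13 and -0.18, and 276 unnamed loci were higher and 95 lower (74.4% of those past the rule higher). The same scaling gave 371 and 316 for named rows (54%) and 647 and 412 for all rows (61.1%). Because both comparisons use 1 control library, they are given side by side and not as repeats of each other.

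MSTRG.26894 was at 0.257, 0.215 and 99.7 FPKM, high in the high dose library alone (log2 ratio 6.32). It had a narrow interval on chromosome 3, 95015625 to 95042614, and lay between 4930481B07Rik and Psmd4, a ubiquitin receptor of the proteasome at 111, 71.6 and 77.9 FPKM. MSTRG.799 was listed at 0, 0.489 and 233 FPKM and MSTRG.26041 at 0, 36.8 and 38.2 FPKM. MSTRG.1845 was at 0, 0 and 58.3 FPKM, but was listed for only 2 of the 3 libraries, with the absent row taken as 0. MSTRG.799 and MSTRG.1845 were high at the high dose only, and MSTRG.26041 at both doses.

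On the lower side MSTRG.15202 was at 60.6, 195 and 0.539 FPKM (log2 ratio -5.32) and MSTRG.22913 at 71.3, 127 and 1.12 FPKM (-5.09). Both were higher than control in the low dose library. The interval of MSTRG.15202 began at Eif3e, a translation initiation factor gene, and MSTRG.22913 lay between Cfap157 and Slc2a8, both at or under 0.28 FPKM. MSTRG.4691 was listed at 37.1, 25.8 and 0 FPKM, MSTRG.17729 at 29, 20.6 and 0 FPKM and MSTRG.14786 at 25, 12.3 and 0 FPKM. MSTRG.17729 was next in number to Setd4, a methyltransferase gene at 218, 231 and 235 FPKM, which was level across the libraries.

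Loci past the rule in the same direction in both exposed libraries numbered 243 on the higher side (18.5%) and 15 on the lower side (1.14%), counts that share the control library. Among all rows with a mean of at least 10 FPKM these shares were 10.8 and 1.83%, and among named rows 8.33 and 2.05%. Besides MSTRG.22839, MSTRG.7913, MSTRG.26041 and MSTRG.29356, the loci with the largest differences on the higher side included MSTRG.29503, listed at 0, 26.4 and 38.1 FPKM. On the lower side, besides MSTRG.3090, which was listed for control only, were MSTRG.25834 at 32.9, 0.682 and 2.14 FPKM and MSTRG.17580 at 31.2, 0.884 and 1.62 FPKM. MSTRG.45680 was at 22.8, 4.59 and 5.24 FPKM and MSTRG.861 at 21.6, 5.31 and 3.38 FPKM. MSTRG.25834 followed Actl6a, a subunit of chromatin remodelling complexes at 9.08, 5.64 and 9.89 FPKM.

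In the high dose library against the low dose library, 117 unnamed loci were higher (8.91%) and 248 were lower (18.9%), while 6.17% of all rows were higher and 12.5% lower, and 5.29 and 10.4% of named rows. The median log2 ratio was -0.06 for unnamed loci, -0.02 for named rows and -0.03 for all rows. Under trimmed mean scaling all 3 medians changed sign, to 0.07 for unnamed loci, 0.12 for named rows and 0.11 for all rows. The largest negative ratio belonged to MSTRG.10731, at 51.6, 384 and 1.07 FPKM (log2 ratio -7.54). It was next in number to Ckb, the brain-type creatine kinase, at 94.0, 79.8 and 37.1 FPKM, on chromosome 12, 111538016 to 111672338. Both were lowest in the high dose library, and the low dose library was the highest for the locus but not for Ckb.

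MSTRG.15202 (-6.99) and MSTRG.22913 (-5.92), given above, were also among the 6 largest negative ratios. MSTRG.6654 was at 7.05, 114 and 0.234 FPKM (-6.55), with an interval that began at Npm1, the nucleophosmin gene. MSTRG.17608 was at 2.10, 169 and 2.13 FPKM (-5.77) and MSTRG.45584 at 0.608, 71.5 and 0.119 FPKM (-6.02). For these 2 loci control and the high dose library were close together and the low dose library stood alone. On the positive side the largest ratios were those of MSTRG.799 (7.30), MSTRG.14892 (6.53) and MSTRG.26894 (6.37), all given above. MSTRG.1845, given above, and MSTRG.21968, listed at 1.52, 0 and 62.2 FPKM, were at 0 in the low dose library. MSTRG.35561 was at 4.15, 1.63 and 117 FPKM (5.49).

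**Figure D2:**
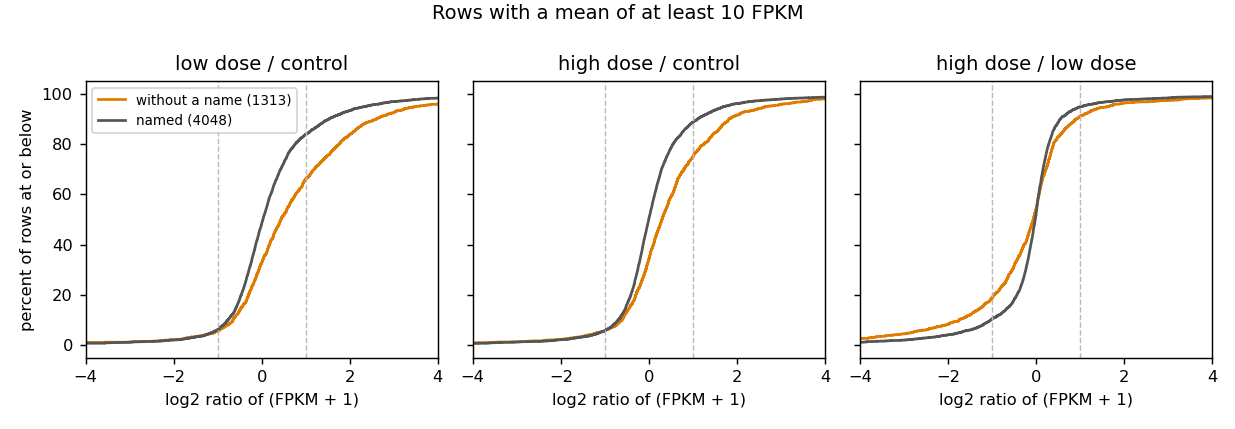
Cumulative percent of rows at or below each log2 ratio of (FPKM + 1), for the 1313 unnamed loci and the 4048 named rows with a mean of at least 10 FPKM, with dashed lines at the 2-fold rule and the axis cut at 4 in either direction. Against control the curve of the unnamed loci lies to the right of that of named rows on the higher side, and the 2 curves run together below the lower dashed line.

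Values at 0 were few. At least 1 library was at 0 for 3.12% of the unnamed loci and for 2.27% of named rows. Of the 1313 loci 36 were at 0 in 1 library and 5 in 2 libraries, and 1310 were listed in all 3 tables. Control was at 0 for 20 loci, the low dose library for 14 and the high dose library for 12. Among named rows of the same level these counts were 49, 35 and 35, so control had the most in both kinds.

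The difference between unnamed and named rows grew with level. In rows with a mean from 1 to 2 FPKM the median log2 ratio of the low dose library to control was 0.24 for both kinds. From 10 to 20 FPKM it was 0.34 for 624 unnamed loci and 0.10 for 1638 named rows. From 20 to 50 FPKM it was 0.44 and 0.04, and from 50 to 100 FPKM it was 0.56 and -0.04. At 100 FPKM or more it was 0.71 for 99 unnamed loci and -0.11 for 549 named rows. The bands were cut on the mean of the same values as the ratio, so a high exposed value also raises the band of a row. The ratios by band were not scaled. Trimmed mean scaling lowers the low dose values, so the sign of a median can depend on it. In the high dose library the medians at 100 FPKM or more were 0.45 and -0.07.

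**Figure D3:**
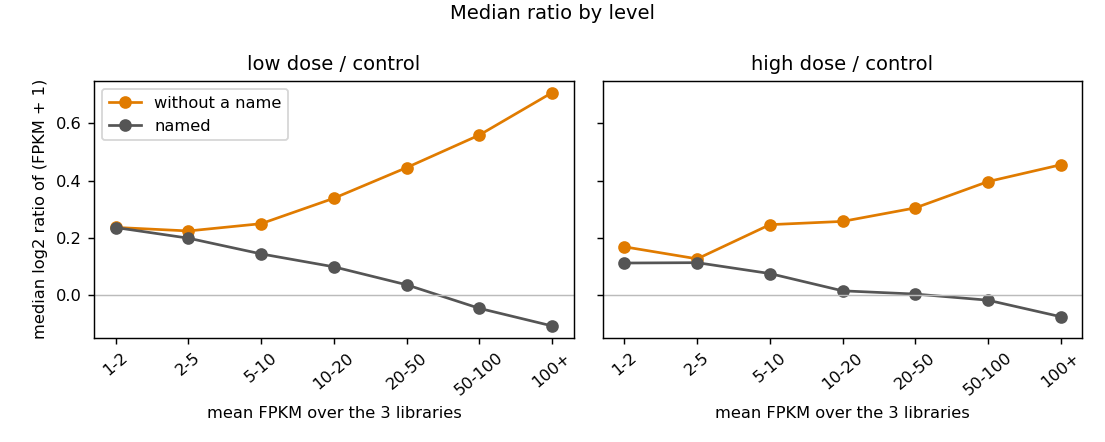
Median log2 ratio of (FPKM + 1) to control by band of mean FPKM for rows without a name and named rows, with the low dose library on the left and the high dose library on the right. In the low dose panel the medians coincide at 1 to 2 FPKM (0.24) and separate to 0.71 and -0.11 at 100 FPKM or more.

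A feature that the rule did not use split the unnamed loci sharply. Some values were written with at most 6 decimals and others with more, and the 2 forms agreed across libraries for all but 24 of the loci above 0 in all 3. Among named rows, more than 6 decimals were found for 16.8% of those whose gene has 1 transcript in GENCODE and for 66.7% of those whose gene has 2 or more, so the longer form was more common where a locus can hold several transcripts. More than 6 decimals were written for 425 unnamed loci (32.4%) and for 2821 named rows of the same level (69.7%).

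The 888 unnamed loci with at most 6 decimals were 46.6% higher and 5.97% lower in the low dose library, with a median log2 ratio of 0.91. The 425 with more decimals were 7.76% higher and 4.71% lower, with a median of 0.01. For the high dose library the medians were 0.52 and 0.04, with 34 and 6.35% higher. A 4-fold span over the libraries was found for 305 loci of the first kind (34.3%) and 21 of the second (4.94%). The higher values in the exposed libraries thus lay in loci with the short form, while loci with the long form were near level.

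Named rows showed the same split, so it was not limited to rows without a name. In the low dose library 41.1% of 1227 named rows with at most 6 decimals were higher, with a median of 0.71, against 5.35% of those with more, with a median of -0.09. Within the short form the split followed the number of rows per gene. Where the symbol stood in several rows, 52.2% of 820 named rows were higher, with a median of 1.09. Where it stood in 1 row, 18.7% of 407 were higher, with a median of 0.08. Unnamed loci with the short form, at 46.6%, were nearer to the former. In the high dose library the corresponding shares were 34.4 and 14%, against 34% of unnamed loci with the short form. What sets these classes apart was not tested.

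**Figure D4:**
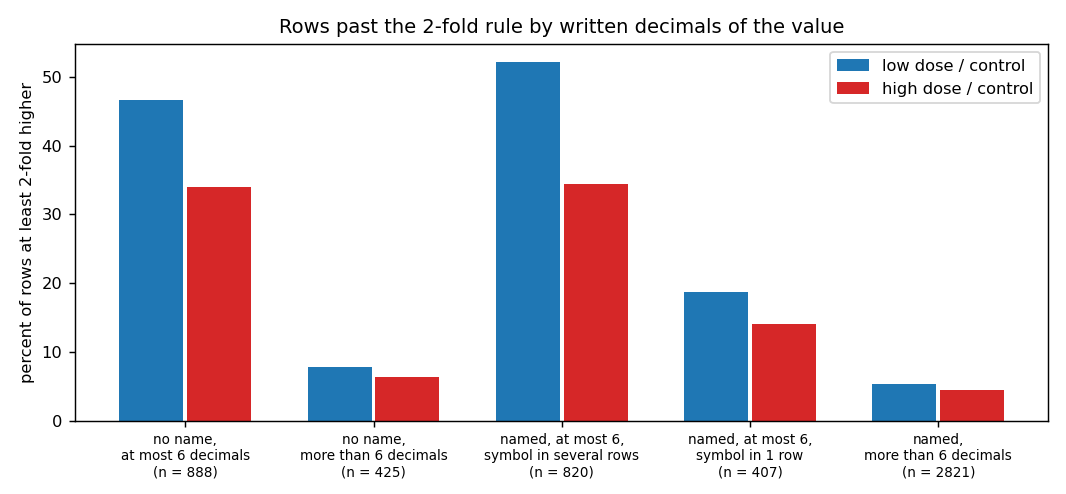
Percent of rows at least 2-fold higher than control, by how the value is written and, for named rows, by whether the gene symbol stands in several rows or in 1, for rows with a mean of at least 10 FPKM. The bars of unnamed loci with at most 6 decimals (46.6 and 34%) are close to those of named rows whose symbol stands in several rows (52.2 and 34.4%) and far above those of rows with more decimals.

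A symbol can stand in several rows, so the value given for a named neighbour is that of its row at the adjacent number. Such named loci were found for 796 unnamed loci (60.6%), on both sides for 224. Another locus without a name stood on both sides of 427, and for 8 neither adjacent number was listed in any table. Another abundant unnamed locus was adjacent for 184. The 1013 distinct named neighbours had a median of their mean levels of 1.80 FPKM, against 1.23 FPKM for all named loci with a number. Of these neighbours 385 (38%) were under 1 FPKM and 196 (19.3%) reached 10 FPKM, against 45.2 and 15.4% of all named loci. The unnamed locus had the higher mean in 918 of 1020 pairs (90%), a share that the threshold on its level favours. Pairs of named neighbours in which the first reached 10 FPKM gave 91%.

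The named neighbours were counted by the form of their symbols. Symbols of the form Gm with digits, which denote predicted genes, made up 170 of the 1013 (16.8%) against 18.3% of all named loci, and Rik symbols 55 (5.43%) against 5.8%. Pseudogene-type symbols with -ps or -rs made up 9 (0.888%) against 1.1%, Rpl genes 5 (0.494%) against 0.391% and Rps genes 2 (0.197%) against 0.334%. Of oocyte multicopy families, 2 neighbours had an Nlrp symbol (0.197% against 0.0722%) and 2 a Tcl1 symbol (0.197% against 0.0228%, or 2 of the 6 named Tcl1 loci), counts too small to compare. No neighbour had an Obox, Oog, Omt2, Oosp, Oas1, Fbxw, Zp, mitochondrial (mt-) or Snor symbol, and 1 had a Mir symbol (0.0987% against 0.224%).

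The ratio of an unnamed locus did not follow that of its named neighbour. Over 632 pairs in which the neighbour reached 1 FPKM, Spearman's rho of the log2 ratios was 0.01 for the low dose and -0.03 for the high dose, across loci of the same 2 libraries. For 2216 pairs of named neighbours it was 0.0046 and 0.03.

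Pairs past the rule in opposite directions numbered 37 of 1020 (3.63%) for the low dose and 23 (2.25%) for the high dose, while 1.12 and 0.356% of 3937 pairs of named neighbours were so. Pairs past it in the same direction numbered 50 (4.9%) and 25 (2.45%), while 1.32 and 0.584% of pairs of named neighbours were so. High against low dose gave 35 opposite pairs (3.43%) and 33 in the same direction (3.24%), beside 1.04 and 0.66% of pairs of named neighbours. Unnamed loci were also past the rule more often than named rows by themselves, and the part of this in both kinds of pair was not tested. With 5 FPKM added in place of 1, opposite pairs fell to 9, 3 and 9 of 1020 (0.882, 0.294 and 0.882%), beside 0.33, 0.0254 and 0.254% of pairs of named neighbours under the same setting.

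In some of the opposite pairs the ratios of the low dose library to control were large for both the locus and its neighbour. MSTRG.46743 was at 0.614, 69.1 and 15.1 FPKM, while Gm3931, at the number below, was at 42.8, 8.62 and 31.1 FPKM. MSTRG.36979 was at 5.89, 108 and 1.24 FPKM beside Gm3375, listed at 24.8, 0 and 0 FPKM. MSTRG.41579 was at 3.21, 34.1 and 5.42 FPKM beside Gm2225, listed at 9.40, 0 and 12.1 FPKM. In the first and the third of these pairs the low dose library had the highest value of the unnamed locus and the lowest of the neighbour.

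MSTRG.21343, given above at 33.2, 0 and 13.4 FPKM, stood beside Cep78, a centriole gene at 5.03, 22.6 and 8.03 FPKM, with the order of the libraries turned round. MSTRG.29899 was listed at 0, 49.2 and 0 FPKM beside Klf17, a zinc finger gene of eggs and early embryos, at 8.34, 1.37 and 1.15 FPKM. MSTRG.46653 was at 11.2, 48.3 and 30.6 FPKM beside Pja1, a ubiquitin ligase gene at 4.93, 0.0468 and 0.33 FPKM. Klf17 and Pja1 were highest in control, where their neighbours were lowest or level with the lowest.

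In the high dose library MSTRG.35561, at 4.15, 1.63 and 117 FPKM, stood beside Kcmf1, a ubiquitin ligase gene at 27.8, 8.17 and 8.49 FPKM. MSTRG.4901 was at 2.19, 22.1 and 21.8 FPKM beside Mier2 at 4.14, 0.41 and 0.23 FPKM. MSTRG.28699 was at 0.895, 13.3 and 22.6 FPKM beside Gm12396 at 30.1, 32.8 and 10.4 FPKM. MSTRG.33509 was at 6.52, 10.8 and 31.4 FPKM beside Wdr66 at 19.6, 17.2 and 6.94 FPKM, and MSTRG.36831 at 4.86, 13.6 and 21.7 FPKM beside Gm15706 at 2.14, 0.66 and 0.13 FPKM. Kcmf1 and Mier2 were low in both exposed libraries, whereas Wdr66 and Gm12396 were low in the high dose library alone. MSTRG.799, given above, had Gm38110 at the number below, listed at 4.53, 1.17 and 0 FPKM.

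**Figure D5:**
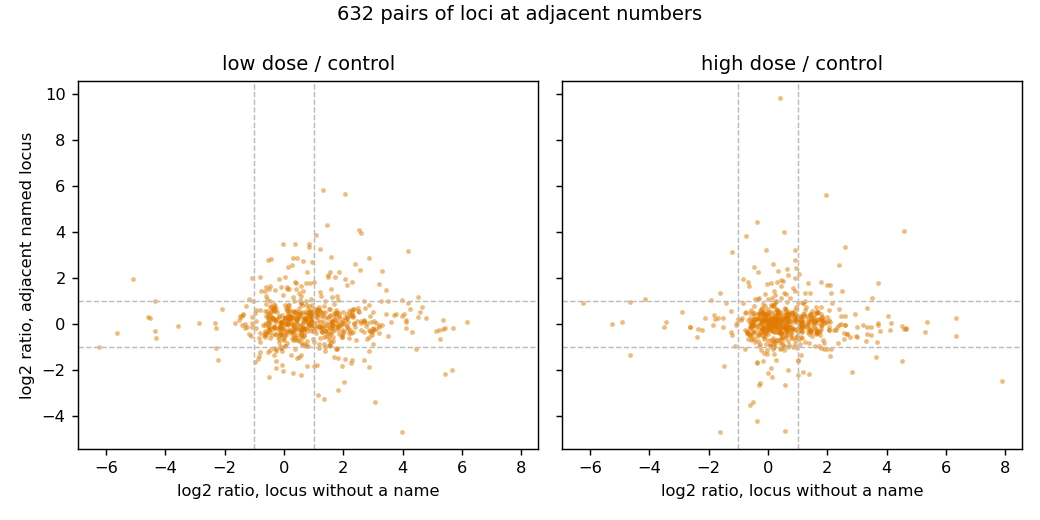
Log2 ratio to control of each unnamed locus (horizontal) and of the named locus at an adjacent number (vertical) for the 632 pairs whose named locus had a mean of at least 1 FPKM, with dashed lines at the 2-fold rule. The points spread along both axes with no common slope (Spearman's rho 0.01 and -0.03), and neighbours of loci with large ratios mostly stay between the dashed lines.

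Most abundant unnamed loci had no other such locus at an adjacent number. How many would be adjacent from their share of all numbers alone was not computed. Runs of consecutive numbers that were all abundant and unnamed had a length of 1 for 1129, of 2 for 80 and of 3 for 8, the longest. Members of a run could differ in the order of libraries. In the run that began after Ldah, MSTRG.9150 was at 0.182, 13.5 and 23.0 FPKM, MSTRG.9151 at 8.64, 58.2 and 2.75 FPKM and MSTRG.9152 at 193, 285 and 152 FPKM. The lowest library was control for MSTRG.9150 and the high dose for the other 2.

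Between Eif1ad and Sart1, a splicing factor gene, on chromosome 19, 5366741 to 5388703, lay MSTRG.21000 at 80.3, 57.3 and 135 FPKM. MSTRG.21001 followed at 20.6, 42.4 and 26.6 FPKM and MSTRG.21002 at 7.31, 41.7 and 16.9 FPKM. Eif1ad was at 4.53, 6.30 and 5.11 FPKM and Sart1 at 11.8, 19.1 and 15 FPKM. Both flanking genes were highest in the low dose library, as were MSTRG.21001 and MSTRG.21002, whereas MSTRG.21000 was lowest there.

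The run from MSTRG.34736 to MSTRG.34738 ended with the abundant locus named above. MSTRG.34736 was at 95.7, 109 and 96.3 FPKM and MSTRG.34737 at 60.4, 66.7 and 83.1 FPKM, both closer together across libraries than MSTRG.34738. In another run MSTRG.6943 was at 225, 203.5 and 259.5 FPKM, MSTRG.6944 at 27.8, 77.6 and 60.6 FPKM and MSTRG.6945 at 0.615, 29.8 and 1.20 FPKM. MSTRG.8876 was at 4.56, 179 and 8.97 FPKM, with MSTRG.8877 at 11.8, 8.5 and 11.4 FPKM and MSTRG.8878 at 2.03, 7.15 and 20.9 FPKM. Of this last run the first locus was high in the low dose library and the third in the high dose library, and the middle locus was level.

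Of the other 3 runs, the one just before Nol10 stayed within the 2-fold rule in every comparison. MSTRG.9284, MSTRG.9285 and MSTRG.9286 were at 18.0, 16.5 and 18.0 FPKM, at 34.7, 26.8 and 27.0 FPKM and at 12.4, 8.23 and 10.6 FPKM. MSTRG.19160 was at 45.1, 27.7 and 32.7 FPKM, MSTRG.19161 at 49.7, 42.1 and 37.5 FPKM and MSTRG.19162 at 0.165, 27.7 and 4.02 FPKM. MSTRG.22471 was at 13.8, 11.3 and 11.4 FPKM, MSTRG.22472 at 27.4, 41.7 and 36.7 FPKM and MSTRG.22473 at 28.9, 127 and 95.9 FPKM. In these last 2 runs MSTRG.19162 and MSTRG.22473 were far above control in the low dose library, while the other loci were not past the rule there.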

How the data were processed

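For every library there was 1 deposited table, whose column header calls the values FPKM beside an identifier and a gene name. HISAT2, StringTie and the build mm10 are named in the submitters' processing notes. Not given in the sources used here were the versions, annotation, filters and strand setting. Tables were joined by identifier, and rows absent from a table were taken as 0. The loci and the lists were chosen with earlier results of these data known.

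Log2 ratios were taken after adding 1 FPKM, which understates changes of low rows, on values as deposited. FPKM is not a count and each group had 1 library, so no test was run. Depth was estimated from the most common low product of FPKM and exon length among named rows with at most 6 decimals and 1 annotated transcript, under an untested assumption that it is worth 1 read. Adjacent loci differed by 1 in number. Positions came from GENCODE M21. The trimmed mean scaling used rows of every level above 0 in both libraries compared. It left out 30% of ratios and 5% of levels on each side. Python 3.11.15, pandas 2.3.3 and NumPy 2.4.6 were used. The rule and the scaling were tested on simulated data with little spread and with changes drawn at random in either direction. That simulation does not cover the spread of these libraries or changes mostly in 1 direction. It held only rows with a mean of at least 10 FPKM, whereas the scaling of the data used rows of every level.

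Loci were named in the text by rank: the 15 highest means, the 6 largest ratios in each direction for each pair of libraries, the 5 largest in both exposed libraries, the 5 steadiest, the 3 on either side of the threshold, the longest runs, and the 6 most opposed pairs for each exposed library. Alternatives were other pseudocounts, scalings, thresholds, filters and ways to join rows. The split by decimals was chosen after seeing the data.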

Additional observations from a re-analysis of the deposited data

How the results depend on the processing

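Raising the mean to 20 FPKM left 689 loci and lowering it to 5 gave 2321, with 412 and 1403 beside a named locus in place of 796. Loci past the rule at 20, at 5 and without a filter numbered 280, 892 and 4609 (low dose; 520 in the report), 205, 707 and 2962 (high dose; 405) and 166, 629 and 4661 (high against low; 365), and under a 4-fold rule 243, 142 and 158; these follow from the settings. Without a filter the high dose median was 0.13. For the low dose, trimmed mean and median scaling lowered the share of higher loci to 75.2 and 74.8% and the median to 0.11 and 0.0975. For the high dose they gave medians of 0.12 and 0.0907, and for high against low 0.0724 and 0.0589, a change of sign. Loci with at most 6 decimals had medians of 0.91, 0.52 and -0.20 in the 3 comparisons. Those with more had medians of 0.0116, 0.0423 and 0.0694 (the last a change of sign), with 53, 46 and 45 past the rule and 62.3, 58.7 and 42.2% of these higher. Opposite pairs fell to 9, 3 and 9 with a pseudocount of 5 FPKM, and for high against low to 23 where the neighbour reached 1 FPKM. The cause of the changes under scaling and pseudocount was not tested. Of 1020 ratios recomputed for 85 named loci, 984 stayed on their side of the rule, 23 left it and 13 entered it, and none that had passed it changed direction. No paired analysis was possible because each group had 1 library. Depth limits low values, and the length of a locus is unknown.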

Other observations

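Placed by number, abundant loci made up between 7.64% (chromosome 8, 44 of 576) and 14% (chromosome 11, 97 of 692) of the rows without a name on a chromosome other than Y, where 0 of 5 rows qualified. The median log2 ratio of the low dose library to control was highest for the 84 loci placed on chromosome X (0.97) and the 97 on chromosome 11 (0.96). It was lowest for the 67 on chromosome 15 (0.25). Named rows and the 2 forms of decimals were not compared by chromosome, and what sets the chromosomes apart was not tested. Rows named in 1 table and without a name in another numbered 9, of which 2 reached 10 FPKM. MSTRG.13260, named Nek4 in the control table only, had 17.2 FPKM there, 6.82 FPKM at the low dose and 8.45 FPKM at the high dose. MSTRG.41295, named Tll1 in the exposed tables only, was at 8.57, 14.8 and 10.6 FPKM.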
